A study of Mus musculus with 4 samples.

Results

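The secreted proteins of blood plasma that the liver makes were followed here across 4 organ primordia of the mouse embryo, together with the apolipoproteins that carry lipid in plasma. The set holds 34 genes. They were chosen with earlier results of these arrays in view, because liver genes were high on the intestine array and second highest on the lung array, so every level below is a description and no test is attached to it. An accession on the array led to 33 of the 34 symbols, through 39 probes, out of 16995 genes named on the array. Apoc2 was not matched. Of the 33, 31 were well above background on at least 1 array, a flag that the scanner software gives a spot whose signal clears its background, and 18 were so on all 4 arrays; over the whole array the counts were 14506 and 9497 genes. Apoc3 and Fetub were not well above background on any array and are given no level.

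Total RNA came from ICR mice, an outbred laboratory strain, at embryonic day E11.5, counted from the vaginal plug as E0.5. The lung, esophagus, stomach and intestine primordia carry no stated mutation, transgene or treatment. Each organ was measured on 1 array, labelled with Cy3 alone, and 1 slide and 1 scan served for all 4. The extraction protocol of each sample names stomach, so the organ was taken from the tissue label and title. Whether embryos were pooled is not given in the sources used here. With no replicate of any organ, no p-value is given, differences describe these 4 arrays, and their number limits the precision.

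Levels are log2 signal minus the array's own 75th percentile, so a level of 0 lies at that percentile and a difference of 1 is 2-fold. The lung array was dim: 39.0% of its 43379 spots were well above background against 67.9% to 74.0% on the others, and its lowest level well above background was −2.39, where esophagus reached down to −5.75, stomach to −5.78 and intestine to −6.92. In a difference, a value that was not well above background was raised to the lowest such level of its own array where it lay under it, and its fold is written "at least". Such a bound holds for this background treatment only. Probes spotted 10 times had a median SD of 0.11 in lung and 0.07 to 0.08 elsewhere, and different probes of 1 gene differed by an SD of 0.33 (esophagus minus stomach) to 0.90 (lung minus esophagus). A preset marker of each organ was highest there: Nkx2-1 in lung, at 2.47, Barx1 in stomach, at 4.49, Cdx2 in intestine, at 1.90, and Sox2 in esophagus, at 1.09. Sox2 was 1.38-fold above stomach. Not all genes listed for an organ were highest in it. Of 7 esophagus genes, 4 were at least 2-fold higher in esophagus than in stomach (5.63% of all genes) and 2 lower (4.27%). Their summed level, in multiples of the 75th percentile signal, was 35.8 in esophagus and 84.9 in stomach. Of 8 stomach genes compared, 6 were at least 2-fold lower in lung than in stomach (9.87% of all genes) and 2 higher (14.0%).

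Hepatocytes and their embryonic precursors, the hepatoblasts, secrete most plasma proteins, among them albumin, clotting factors, transport proteins and protease inhibitors. In the embryo the yolk sac endoderm makes many of the same proteins before and beside the liver, and the intestinal epithelium makes several apolipoproteins. The liver bud grows from the foregut endoderm between the stomach and the intestine. In whole organ RNA, fewer cells of a type and less RNA per cell cannot be told apart.

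Of the 31 measured genes, 24 were highest in intestine, where 16.1% of the 14506 measured genes were highest. Lung came second for 15 of these 24, an order that 4.51% of all genes shared. In intestine 17 of the 31 stood at least 2-fold above every other organ, and 9 at least 4-fold, against 1.11% and 0.262% of all genes. The members were chosen for this order, so the shares of all genes are printed for scale only. Lung was not well above background for 13 of the 31 genes, stomach for 7, esophagus for 4 and intestine for none, so the second place of lung could be read for fewer than all members. Of all 14506 measured genes, 9524 were well above background in lung, 13374 in stomach, 13278 in esophagus and 14271 in intestine.

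**Figure D1:**
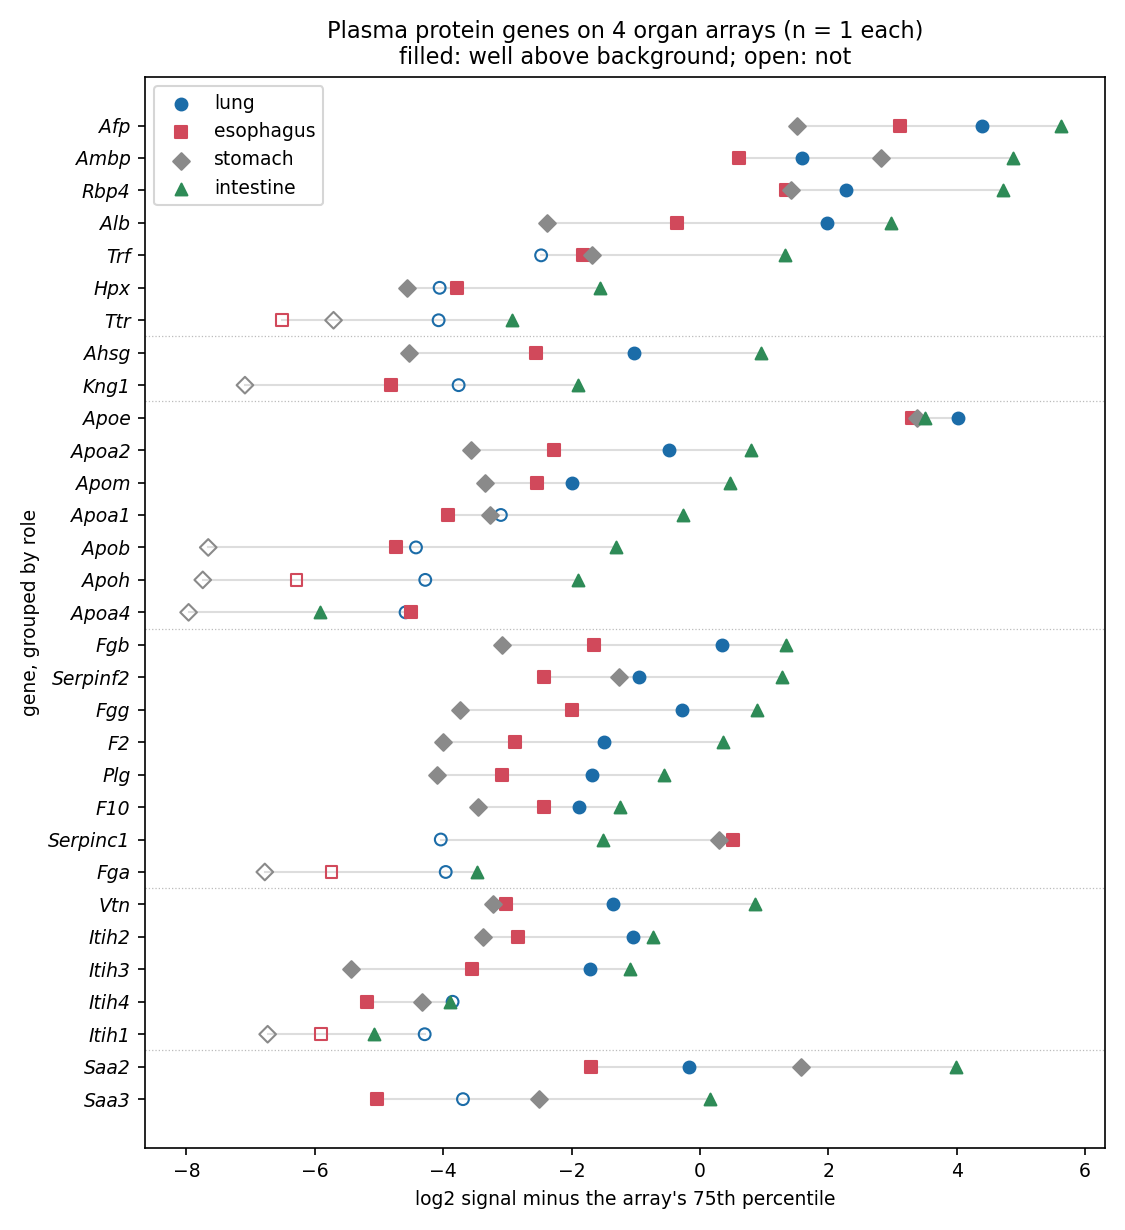
Level of each of the 31 measured genes (rows, grouped by role) on the 4 organ arrays, as log2 signal minus the array's 75th percentile (x axis); filled symbols were well above background, open symbols were not, and n = 1 array per organ. Intestine lies farthest right for most genes, while Apoe has its highest level in lung and Serpinc1 in esophagus.

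Alb, which encodes serum albumin, the main protein of plasma, stood at 2.98 in intestine and 1.98 in lung, against −0.36 in esophagus and −2.39 in stomach. Intestine was 2.0-fold above lung and 41.2-fold above stomach, and lung was 5.07-fold above esophagus. Afp, which encodes alpha-fetoprotein, the fetal relative of albumin, had the same order. Its probe was spotted 10 times, and its levels were 5.63 ± 0.07 in intestine and 4.39 ± 0.06 in lung, against 3.12 ± 0.07 in esophagus and 1.51 ± 0.07 in stomach (SD over 10 spots of 1 array, not over samples). No organ overlapped another within that spot error for Afp. Alb and Afp are next to each other among the protein-coding genes of the mouse genome, and the step from intestine to lung was 1.0 for Alb and 1.23 for Afp.

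The carriers of small molecules were less alike. Rbp4, the retinol carrier, stood at 4.73 in intestine, 2.27 in lung, 1.41 in stomach and 1.33 in esophagus, so intestine stood apart and the other organs lay within 1 unit of each other. Ambp, the precursor of alpha-1-microglobulin and bikunin, stood at 4.87 in intestine and 2.81 in stomach, above 1.59 in lung and 0.61 in esophagus. For Ambp stomach, not lung, was second, and lung was 2.33-fold below stomach. Trf, transferrin, the iron carrier, stood at 1.32 in intestine, −1.68 in stomach and −1.82 in esophagus and was not well above background in lung. Intestine was at least 13.1-fold above lung and 8.01-fold above stomach for Trf. Hpx, hemopexin, which binds free heme, stood at −1.57 in intestine, −3.79 in esophagus and −4.56 in stomach, with lung not well above background. Ttr, transthyretin, the carrier of thyroid hormone, was well above background in intestine only, at −2.93, at least 6.88-fold above stomach and at least 7.09-fold above esophagus. All 7 albumin family and carrier genes were higher in intestine than in stomach by at least 2-fold, where 4.87% of 13807 genes were.

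Fetuins and kininogen are plasma proteins with cystatin domains. Ahsg, fetuin A, which inhibits mineral growth, had the widest range of the genes measured on all 4 arrays in the order of albumin. It stood at 0.95 in intestine and −1.02 in lung, against −2.56 in esophagus and −4.53 in stomach. Intestine was 44.8-fold above stomach for Ahsg, and each of the 3 steps was at least 1.54 on the log2 scale. With normexp background correction, intestine minus stomach was 3.31 for Ahsg, against 5.49. Kng1, kininogen 1, the source of bradykinin, stood at −1.90 in intestine and −4.82 in esophagus by its brighter probe and was not well above background in lung or stomach. Its other probe was well above background in intestine only, at −4.53. Fetub, which lies next to Ahsg, was not well above background on any array.

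The subunits of fibrinogen, the protein that forms the clot, are encoded by neighbouring genes in the order Fgg, Fga and Fgb. Fgb stood at 1.34 in intestine and 0.35 in lung, against −1.66 in esophagus and −3.08 in stomach, and Fgg at 0.89, −0.27, −1.99 and −3.74 in the same organs. Their steps were alike: intestine was 1.99-fold above lung for Fgb, just under the 2-fold size that Alb just passed, and 2.24-fold for Fgg. Fga was well above background in intestine only, at −3.47, at least 4.93-fold above stomach.

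The clotting factors and their inhibitors mostly shared this order. F2, prothrombin, stood at 0.36 in intestine and −1.50 in lung, against −2.88 in esophagus and −4.00 in stomach, a 20.6-fold range. F10, factor X, had the smallest range of the genes in this order, from −1.25 in intestine over −1.89 in lung and −2.43 in esophagus to −3.47 in stomach. With normexp lung lay above intestine for F10 (intestine minus lung −0.55). Plg, plasminogen, the precursor of the enzyme that dissolves fibrin, had a pair of probes that gave like values: −0.56 and −0.55 in intestine, −1.68 and −1.63 in lung, −3.09 and −3.59 in esophagus and −4.10 and −4.37 in stomach. Serpinf2, alpha-2-antiplasmin, departed from that order, with 1.28 in intestine, −0.96 in lung, −1.26 in stomach and −2.44 in esophagus. Lung and stomach were 1.24-fold apart for Serpinf2, less than the spread between probes of a gene for that pair.

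Serpinc1, antithrombin, which inhibits thrombin, gave opposite orders with its probes. The brighter probe stood at 0.51 in esophagus and 0.29 in stomach, above −1.50 in intestine, and was not well above background in lung. The other probe stood at 0.41 in intestine and −1.54 in lung, against −2.79 in esophagus and −4.14 in stomach, the order of albumin. Counts of genes use the brighter probe, so Serpinc1 is not among the 24 genes highest in intestine. With the mean of its probes, intestine minus stomach was 1.38, against −1.79 with the brighter probe.

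The apolipoproteins, the protein part of lipoprotein particles, were mixed. Apoa2, a protein of high density lipoprotein, stood at 0.79 in intestine and −0.49 in lung, against −2.28 in esophagus and −3.57 in stomach, again the order of albumin. Apom, a carrier of sphingosine 1-phosphate, stood at 0.46 in intestine and −2.0 in lung, against −2.54 in esophagus and −3.35 in stomach. Apom had the largest step from intestine to lung of the genes in this order, 5.50-fold.

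Apoa1, the main protein of high density lipoprotein, was measured with 10 spots. It stood at −0.26 ± 0.05 in intestine, −3.28 ± 0.08 in stomach and −3.92 ± 0.13 in esophagus (SD over spots) and was not well above background in lung. Stomach was above esophagus for Apoa1, the reverse of Alb, by 1.57-fold. Apob, the scaffold of low density lipoprotein and chylomicrons, was well above background in intestine with each of 3 probes, at −1.30, −1.68 and −4.06. Only 1 of these probes was well above background elsewhere, in esophagus at −4.74, and by it intestine was at least 22.2-fold above stomach. Apoh, beta-2-glycoprotein I, was well above background in intestine only, at −1.90, at least 14.7-fold above stomach. With normexp, intestine minus stomach fell from 3.87 to 0.94 for Apoh and from 4.47 to 1.53 for Apob.

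Apoa4, an apolipoprotein of intestinal lipid absorption, was higher in esophagus, at −4.51, than in intestine, at −5.93, and not well above background in lung or stomach. Both levels lay near the lowest well above background, −5.75 in esophagus and −6.92 in intestine. Before scaling, the Apoa4 signals were alike, 16.7 in esophagus and 16.3 in intestine, so the difference rests on the scaling to each array's 75th percentile. Apoc3, which lies between Apoa1 and Apoa4, was not well above background on any array by either probe. Apoe, an apolipoprotein that many tissues and macrophages make, was nearly level: 4.02 ± 0.04 in lung, 3.51 ± 0.06 in intestine, 3.38 ± 0.05 in stomach and 3.30 ± 0.06 in esophagus (SD over 10 spots). The whole range of Apoe was 1.65-fold, and lung was 1.43-fold above intestine. With normexp background correction intestine lay above lung for Apoe instead, by 0.78 on the log2 scale. Csf1r, the growth factor receptor of macrophages, was also highest in lung, at 0.71, against −0.50 to −0.27 in the other organs. However, 5 of the 13 measured macrophage genes were highest in intestine. Of 11 macrophage genes compared 1, Csf1r, was at least 2-fold above esophagus in lung, where 16.2% of all 10513 genes compared were. The summed level of the 13 measured macrophage genes was 11.4 in lung and 8.07 to 10.8 in the other organs, in multiples of the array's 75th percentile signal, and their part in the Apoe level was not tested.

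The inter-alpha-trypsin inhibitor heavy chains bind hyaluronan in the matrix. Itih2 stood at −0.74 in intestine and −1.05 in lung, against −2.83 in esophagus and −3.38 in stomach, and Itih3 at −1.08, −1.71, −3.55 and −5.44. Itih2 and Itih3 had small steps from intestine to lung, 1.24-fold and 1.54-fold, and larger ones from lung to esophagus, 3.44-fold and 3.57-fold. Itih3 lies between Itih4 and Itih1. Itih4 stood at −3.89 in intestine, −4.33 in stomach and −5.19 in esophagus and was not well above background in lung. With normexp, intestine minus stomach turned to −0.62 for Itih4, and intestine minus lung to −0.27 for Itih2 and −0.55 for Itih3. Itih1 was well above background in intestine only, at −5.09. Vtn, vitronectin, a matrix and plasma adhesion protein, stood at 0.85 in intestine and −1.35 in lung, against −3.02 in esophagus and −3.22 in stomach. Esophagus and stomach were 1.15-fold apart for Vtn, within the spread between probes of a gene.

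The products of the serum amyloid A genes rise in blood during the acute phase response. Saa2 stood at 3.99 in intestine, 1.58 in stomach, −0.18 in lung and −1.69 in esophagus. Saa3 stood at 0.16 in intestine, −2.51 in stomach and −5.03 in esophagus and was not well above background in lung. Stomach was second for Saa2, while second place could not be read for Saa3, whose stomach level lay under the lowest lung level. For both, stomach was above esophagus, by 9.68-fold for Saa2 and 5.74-fold for Saa3, where Alb was 4.07-fold lower in stomach than in esophagus. Only 4.27% of 13732 genes were at least 2-fold lower in esophagus than in stomach, and 4 of 27 members were: Saa2, Saa3, Ambp and Serpinf2. Saa2 has close relatives in the genome, and whether its probe also bound their RNA was not tested. Saa1, one of them and no member, had the same order, with 2.97 in intestine, 0.37 in stomach, −0.80 in lung and −1.72 in esophagus. Of further liver genes, Serpina1d, an alpha-1-antitrypsin gene, stood at 4.15 in intestine, 1.59 in stomach, 1.11 in lung and 0.06 in esophagus, and C3, the central complement component, at 1.28, 0.20, −0.03 and −0.97; these 3 were chosen after their values were seen. Lung minus stomach was −0.49 for Serpina1d and −0.23 for C3, less than the SD of 0.82 between probes of a gene for that pair.

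Of the 18 members measured in all 4 organs, 13 ran from intestine over lung and esophagus to stomach: Alb, Afp, Ahsg, Fgb, Fgg, Apoa2, Apom, F2, F10, Plg, Itih2, Itih3 and Vtn. Of 9497 genes measured on all 4 arrays, 1.46% had this order. Over the 13, intestine was above lung by a median of 1.16 on the log2 scale (0.31 for Itih2 to 2.46 for Apom), lung above esophagus by 1.67 (0.54 for F10 to 2.34 for Alb), and esophagus above stomach by 1.30 (0.21 for Vtn to 2.02 for Alb). The whole range from intestine to stomach had a median of 4.35, or 20.4-fold, and ran from 2.21 for F10 to 5.49 for Ahsg. The remaining 5 genes were Serpinf2 and Rbp4, with stomach above esophagus, Ambp and Saa2, with stomach second, and Apoe, with lung first. With normexp background correction 3 of the 13 had lung above intestine: F10 (intestine minus lung −0.55), Itih2 (−0.27) and Itih3 (−0.55), and the step of Plg was 0.018. Some steps were smaller than the SD between probes of a gene for their pair. These were intestine minus lung for Itih2, Itih3 and F10 (SD 0.69), and lung minus esophagus for F10 and Apom (SD 0.90). Esophagus minus stomach was so for Vtn (SD 0.33), and Rbp4 left the common order by only −0.08 in that pair. The grouping into 13 and 5 was made from the values, carries no test and is not firm for these genes.

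**Figure D2:**
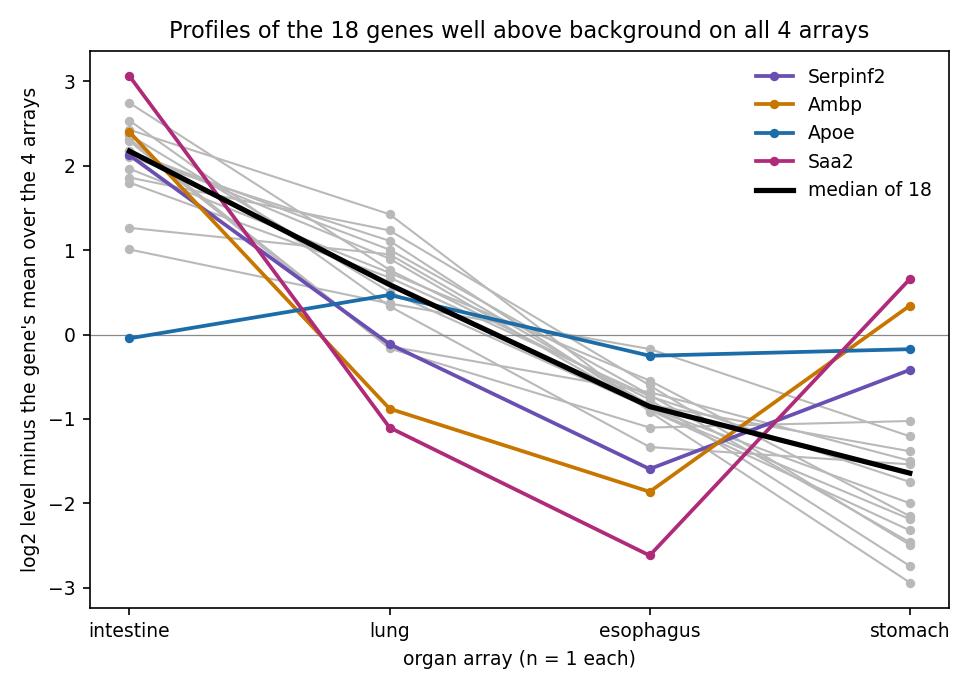
Level of the 18 genes measured on all 4 arrays, as log2 level minus the gene's own mean (y axis), by organ array (x axis, n = 1 each); grey lines are genes, the black line is their median and the coloured lines are Serpinf2, Ambp, Apoe and Saa2. Grey lines fall from intestine over lung to esophagus, and all but Rbp4 reach their lowest level in stomach, while Ambp and Saa2 turn up in stomach and Apoe stays within 0.47 of its mean.

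The letters before the start site are shown for 5 of these genes, because 3 shared the common order and 2 had stomach second. Promoters from RefSeq (GRCm38.p6) were found for 29 of the 34 genes, 4 of them with more than 1, and the 250 bases before the start were searched on both strands; the array design itself refers to mm8, and no array position was set against these. Capitals mark GTTAAT or its reverse complement ATTAAC, the core of the site of the liver factor HNF1, and TATAAA, the letters of a TATA box. Alb (chr5:90460620-90460869, + strand) and Afp (chr5:90490464-90490713, + strand) are the neighbours led by intestine and lung, Fgb (chr3:83049864-83050113, − strand) is the fibrinogen gene of like order, and Ambp (chr4:63154173-63154422, − strand) and Saa2 (chr7:46751583-46751832, + strand) are the genes with stomach second.
Alb: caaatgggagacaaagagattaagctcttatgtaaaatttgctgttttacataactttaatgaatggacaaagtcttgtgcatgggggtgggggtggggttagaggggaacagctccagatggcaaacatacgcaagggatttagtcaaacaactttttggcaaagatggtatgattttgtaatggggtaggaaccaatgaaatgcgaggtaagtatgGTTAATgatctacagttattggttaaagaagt
Afp: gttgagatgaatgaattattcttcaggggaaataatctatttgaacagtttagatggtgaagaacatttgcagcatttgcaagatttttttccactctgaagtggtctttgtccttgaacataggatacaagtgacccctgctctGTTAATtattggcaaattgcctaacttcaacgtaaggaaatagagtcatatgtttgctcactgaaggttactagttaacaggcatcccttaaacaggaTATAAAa
Fgb: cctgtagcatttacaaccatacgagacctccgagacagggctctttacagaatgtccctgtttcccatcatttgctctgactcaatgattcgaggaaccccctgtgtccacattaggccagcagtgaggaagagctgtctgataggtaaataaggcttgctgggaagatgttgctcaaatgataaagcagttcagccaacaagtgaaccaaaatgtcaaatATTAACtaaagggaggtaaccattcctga
Ambp: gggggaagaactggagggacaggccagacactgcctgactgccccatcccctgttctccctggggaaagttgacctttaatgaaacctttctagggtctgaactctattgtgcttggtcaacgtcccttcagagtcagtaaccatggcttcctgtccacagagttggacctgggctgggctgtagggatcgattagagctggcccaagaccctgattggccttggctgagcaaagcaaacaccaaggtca
Saa2: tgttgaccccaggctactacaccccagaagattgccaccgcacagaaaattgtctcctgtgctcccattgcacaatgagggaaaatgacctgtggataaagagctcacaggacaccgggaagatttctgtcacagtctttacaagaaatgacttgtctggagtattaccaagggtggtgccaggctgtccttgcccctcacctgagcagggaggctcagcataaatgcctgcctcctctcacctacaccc
The HNF1 core began 32 bases before the annotated start of Alb and 29 before that of Fgb and lay farther upstream in Afp. In Afp the letters TATAAA began 7 bases before the annotated start, and whether they act as a TATA box was not tested. None of the letters searched and capitalised occurred in the windows of Ambp and Saa2.

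Over the 29 genes with a promoter, 8 (27.6%) held GTTAAT, against 7.49% of all 27025 genes with a promoter: Afp, Alb, Apoc2, Apoe, Fga, Fgb, Itih1 and Vtn. Of these, Alb, Afp, Fgb and Vtn had the order of albumin, Fga and Itih1 were well above background in intestine only, and Apoe was highest in lung. The other genes in the order of albumin, Ahsg, Fgg, Apoa2, Apom, F2, F10, Plg, Itih2 and Itih3, are not among the 8, for lack of these letters or of a promoter. Most genes of that order thus have no GTTAAT match here. TGTTTAC, a FOXA site, occurred in 4 (Apoa2, Apoh, Fetub and Rbp4; 13.8% against 3.54%), TATAAA in 7 (24.1% against 14.3%) and the loose C/EBP form TTNNGNAA in 15 (51.7% against 40.3%). The palindrome TTGCGCAA and the HNF4 forms (the direct repeat and CAAAGTCCA) were found in 0 of the 29, and in 0.185%, 0.0407% and 0.451% of all genes. TTNNGNAA can overlap TTGCGCAA. A match is a stretch of letters, not a bound site, and no match says only that these letters are not in the window.

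Pair by pair, 26 of 30 members that could be compared were higher in intestine than in stomach by at least 2-fold (4.87% of all genes) and 1, Serpinc1, was lower (7.52%). The median difference was 3.17 (log2), against −0.04 over all 13807 genes compared. Between intestine and esophagus 27 of 31 were higher (8.71% of all genes) and 2, Serpinc1 and Apoa4, lower (11.9%), with a median of 3.0. Between intestine and lung 17 of 26 were higher (8.40%) and none lower (12.2%), with a median of 1.20. Lung was at least 2-fold above esophagus for 13 of 20 (16.2%) and above stomach for 13 of 20 (14.0%), with medians of 1.44 and 2.10, and it was lower for 1 (9.42%) and 3 (9.87%). Esophagus was above stomach for 12 of 27 (5.63%), with a median of 0.81. These pairs share arrays, so the medians are not separate results, and the dim lung array bounds those it enters.

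**Figure D3:**
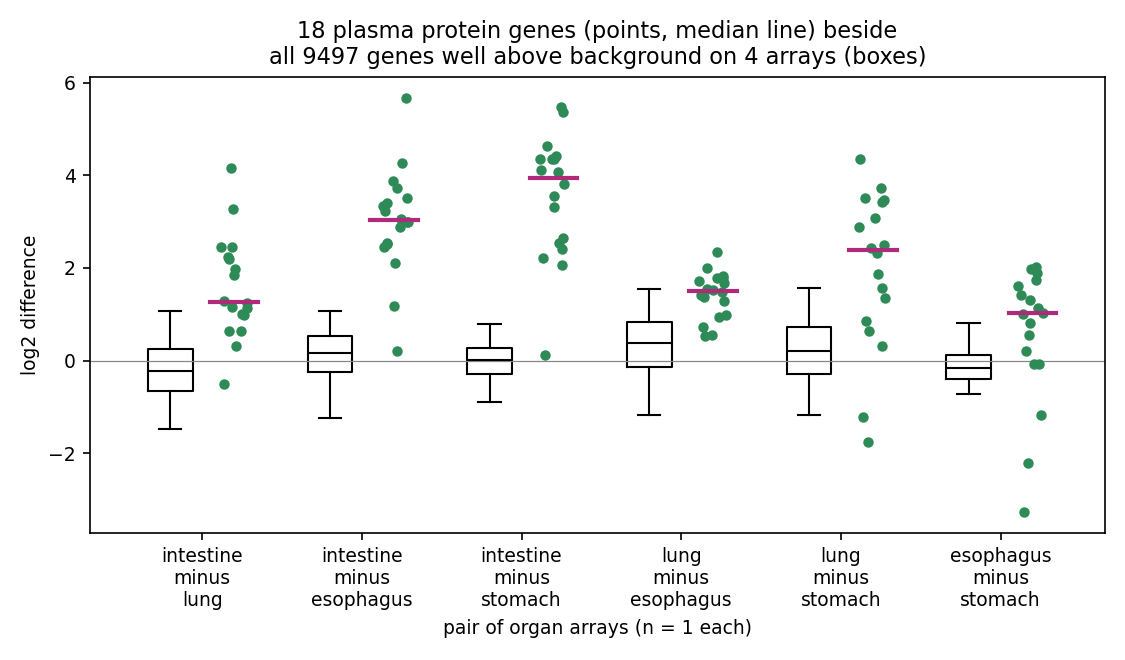
Log2 difference (y axis) between pairs of organ arrays (x axis, n = 1 each) for the 18 genes measured on all 4 arrays (points, with their median as a line) beside all 9497 such genes (boxes from the lower to the upper quartile, whiskers from the 5th to the 95th percentile). The medians are 3.94 for intestine minus stomach and 1.03 for esophagus minus stomach, where the boxes have medians of 0.00 and −0.17.

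Other genes that act with these proteins came from lists written with earlier results of these arrays known. Further secreted liver proteins were mixed: of 42 compared, 18 were higher in intestine than in stomach by at least 2-fold and 4 lower, with a median of 0.89. Serpina6, corticosteroid-binding globulin, stood at 2.95 in intestine and 1.90 in lung, against 0.12 in esophagus and −1.66 in stomach. Serpind1, heparin cofactor II, stood at −0.05, −1.49, −2.67 and −4.53 in the same organs, so both had the order of albumin. Gc, the vitamin D-binding protein and a relative of albumin, was well above background in intestine only, at −1.01, at least 27.2-fold above stomach. F12, Proc (protein C) and Lect2 were well above background in every organ but lung. They stood at −1.75, −1.25 and −1.11 in intestine, at −4.94, −3.71 and −3.53 in esophagus and at −4.94, −4.09 and −4.31 in stomach.

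Of 18 metabolic genes of hepatocytes that could be compared, 7 were higher in intestine than in stomach by at least 2-fold and none lower, with a median of 0.43. Tdo2, tryptophan dioxygenase, stood at −1.35 in intestine and −5.0 in stomach and was not well above background in the others. Ass1, of the urea cycle, stood at −0.75 in intestine and −2.35 in stomach, while Otc, of the same cycle, and Bhmt were well above background in intestine only, at −4.45 and −3.85.

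The transcription factors that control these genes did not share the order as a group: 5 of 20 were higher in intestine than in stomach by at least 2-fold and 1 lower, with a median of 0.30. Hnf4a, which many plasma protein genes need, stood at −2.26 in intestine and −3.31 in stomach and was not well above background in lung or esophagus. Foxa2, a factor of all foregut endoderm, stood at 2.88 in both lung and esophagus, at 2.53 in stomach and lowest, at −0.17, in intestine. Hhex, of the early liver bud, stood at −0.32 in lung, −0.45 in intestine, −1.14 in esophagus and −1.52 in stomach. Prox1, of hepatoblasts and other endoderm, stood at −3.06 in esophagus and −4.85 in stomach, above −5.42 in intestine, and was not well above background in lung. The largest rises from stomach to intestine among these regulators were those of Nr5a2, Nr1h4 and Ppargc1a. Nr5a2 stood at 0.10 in intestine and −1.98 in stomach. Nr1h4, the bile acid receptor, stood at −3.79 in intestine and was not well above background in stomach. The coactivator Ppargc1a stood at −0.43 in intestine and −2.48 in stomach, but was highest in esophagus, at −0.25.

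Genes of lipoprotein assembly and of receptors for plasma proteins differed little between intestine and stomach at the median, 0.07: of 34 compared, 6 were higher in intestine by at least 2-fold and 2 lower. Lung was higher than stomach by that size for 12 of 25 (14.0% of all genes) and lower for 2 (9.87%), with a median of 0.83. Intestine was higher than lung for 4 of 26 (8.40% of all genes) and lower for 7 (12.2%). Mttp, which loads lipid onto Apob, stood at −3.51 in intestine, −3.75 in esophagus and −3.93 in stomach. Cubn, a receptor for albumin, Apoa1 and transferrin, stood at −1.50 in intestine and −1.58 in lung, against −2.89 in esophagus and −4.51 in stomach. Its partner Amn was well above background in intestine only, at −2.92. The transferrin receptors Tfrc and Tfr2 stood at 0.92 and −1.71 in intestine against −0.48 and −3.50 in stomach. Itgav, a vitronectin receptor chain, was 1.24 lower on the log2 scale in intestine than in stomach.

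Markers of cell types that also make these proteins, or that lie beside the dissected organs, varied with organ as well. Of 13 measured yolk sac endoderm genes, which include Amn, Cubn and Hnf4a, 6 were higher in intestine than in stomach by at least 2-fold and none lower. Their summed level, in multiples of the array's 75th percentile signal and with dim arrays at their lowest level, was 24.9 in intestine and 16.9 in lung, against 12.8 in esophagus and 13.6 in stomach. Much of the lead of intestine in this sum came from Tdh, at 3.09 in intestine and at least 44.8-fold above lung. Between intestine and lung, 2 of 9 yolk sac genes compared were at least 2-fold higher in intestine (8.40% of all genes) and 1 lower (12.2%), with a median of 0.14. Of 15 measured intestinal epithelium genes, 14 were well above background in intestine, 11 in stomach, 5 in esophagus and none in lung, and the summed level was 16.5 in intestine and at most 2.86 elsewhere. Cdx2 was at least 19.5-fold above lung in intestine. Of 14 erythroid genes, which blood and the liver of this stage contain, 4 were higher in intestine than in stomach by at least 2-fold, and the summed level was 1399 in lung, 508 in stomach, 362 in esophagus and 354 in intestine. Hbb-bh1, the embryonic beta-like globin, stood at 7.5 in lung and 5.67 in intestine. Gata1 stood at −2.64 in intestine, −3.89 in esophagus and −3.91 in stomach and was not well above background in lung. Its intestine level lay under the lowest such lung level, −2.39, so intestine and lung could not be compared for Gata1. Of 15 pancreas and bile duct bud genes, 3 of 14 compared were higher and 3 lower; Pdx1 stood at −3.65 in stomach and −4.08 in intestine, and Cpa1 at 1.24 in intestine and −2.85 in stomach. Of 10 hepatoblast surface genes 1, Dlk1, was higher in intestine than in stomach by at least 2-fold, and 1, Krt18, lower. Heart muscle genes were high on the esophagus array: 11 of 11 were at least 2-fold above stomach there (median 5.79) and above intestine, and 10 of 10 above lung, with a summed level of 135 in esophagus against 3.85 in stomach and 4.62 in intestine, with lung between intestine and esophagus. Of all genes compared, 5.63% were at least 2-fold above stomach in esophagus, 11.9% above intestine and 9.42% above lung. Lists of other organs and cells differed between intestine and stomach too, with medians of −3.96 for stomach (0 higher by 2-fold and 8 lower, of 9), −3.19 for esophagus (0 and 7 of 7), −0.90 for lung (1 and 3 of 7), −0.46 for heart (2 and 4 of 10), 0.11 for macrophage (0 and 0 of 13) and 0.02 for mesothelium genes (2 and 1 of 7). The part of these cell types in the levels of plasma protein genes was not tested.

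**Figure D4:**
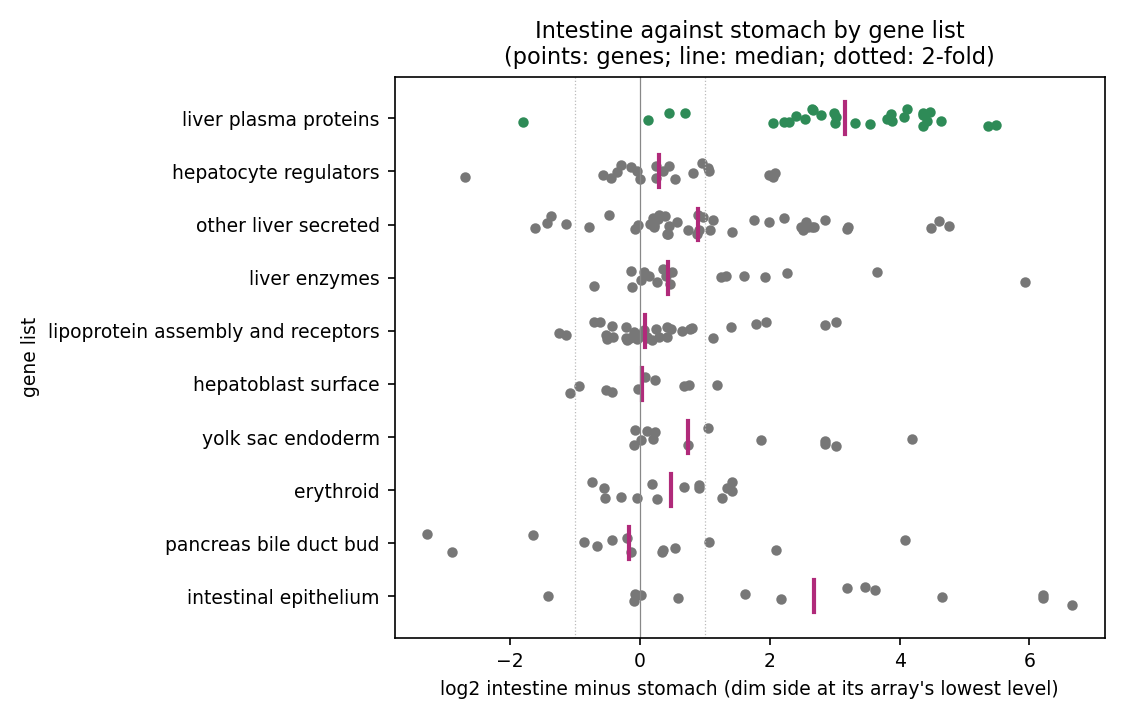
Log2 difference between the intestine and stomach arrays (x axis, n = 1 each; a dim side at its array's lowest level) for the measured plasma protein genes and 9 other gene lists (rows); points are genes, thick lines medians and dotted lines 2-fold. The plasma proteins have a median of 3.17, intestinal epithelium 2.68 and the lists of regulators and hepatoblast surface genes 0.30 and 0.03.

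The 12 genes outside the set whose centred levels on the 4 arrays lay nearest to the median of the 18 members, by Euclidean distance among 9479 genes, were ranked as a description. The nearest was Ntsr1, a neurotensin receptor, at a distance of 0.34, with 1.06 in intestine and −0.69 in lung, against −1.83 in esophagus and −2.50 in stomach. Rgn, regucalcin, a liver and kidney protein, followed at 0.37, then Serpind1 at 0.80. The rest, in order, were Shisa2, Serpina6, Cpne8, the peptidase Dpp4, Aldh1b1, Lrrn3, Cubn, Lrba and Nr5a2, the last at 1.39. F2 and Plg were the members closest to the median, both at 0.41, and Alb, with its wider range, lay at 1.56. Saa2, at 3.47, Apoe, at 2.73, and Ambp, at 2.68, lay farthest. With 4 arrays behind each distance, likeness here rests on 4 values a gene.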

How the data were processed

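Spot intensity values were deposited for 1 Cy3 array per organ; the scanner software, per the file headers, was Agilent Feature Extraction 10.5.1.1 (protocol GE1_105_Dec08; array design 014868, build mm8), which subtracted background and detrended within the array, with no scaling between arrays. Per the labels' protocols, RNA was amplified with a low input kit, which can add differences between arrays that cannot be told apart from the organ. The deposited series table holds log2 values; its scale, centring and direction are known only from its match to log2 processed signal minus the 75th percentile (r at least 0.99996; lung median −3.56, esophagus −2.97, stomach −3.17, intestine −3.47), and it served as an alternative.

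Levels here are processed signals in log2, less the 75th percentile over probe means of each array. Flagged outlier spots were left out, 69 of 41174 probes were dropped for such flags, and copies of a probe were averaged. A probe was well above background when most of its unflagged spots were. Saturation occurred on 0 spots. Of 41105 probes, 24338 were given 1 symbol through their accession in the RefSeq table of GRCm38.p6, used for names and neighbours only. A gene took its probe of highest mean level. Members, lists, rules and tests were chosen with earlier results of these data known. The named genes are all members, up to 6 of each list by size of the intestine minus stomach difference plus preset markers, and the 12 nearest profiles; of the lists of other organs only the markers are named, and some genes under the rule are not reported here. Saa1, Serpina1d, C3, Cfb, Cfi, Agt and Igf1 fall outside the rule and were named after their values were seen. The steps were tested on simulated data. The files hold median, not mean, spot signals, so normexp (offset 50) used the median signals. Python 3.11.15, numpy 2.4.6, pandas 2.3.3, R 4.3.3 and limma 3.58.1 were used.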

Additional observations from a re-analysis of the deposited data

How the results depend on the processing

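With 1 array per organ, a value was called moved when it changed by more than the SD between probes of 1 gene for that pair (0.33 to 0.90), and a count when it changed by more than 1.5 times. Of 193 repeats of counts and medians 171 stayed within that and 22 did not; of 576 repeats of single gene differences 513 did, 62 moved and 1, Serpinc1 with the mean of its probes (1.38, intestine minus stomach), changed sign from a difference of at least 2-fold. Smaller differences changed sign too, so that 8 of the 576 did: besides Serpinc1, 7 under normexp, for Apoe, F10, Itih2 and Itih3 in intestine minus lung, Itih4 in intestine minus stomach and Apoe and Rbp4 in lung minus stomach. By setting, 44 of 67 single gene differences moved or changed sign under normexp, 13 of 76 with no floor and 6 of 75 with the mean of probes. None did under the other settings. Among those, keeping only genes well above background on all 4 arrays leaves a gene's own difference unchanged, and the deposited values nearly equal those used here. The pooled count is therefore no measure of how far a fold depends on background correction. The members highest in intestine numbered 18 under normexp, 26 with no floor, 17 with only genes well above background on all 4 arrays and 29 without lung; those with lung second numbered 11 under normexp and 15 under the other settings. Those 2-fold above every other organ numbered 26 without lung and 12 to 21 otherwise. Under normexp the member medians were 2.26 for intestine minus esophagus, 2.19 for intestine minus stomach and 0.16 for esophagus minus stomach; with only genes well above background on all 4 arrays, intestine minus stomach was 3.94. List medians of intestine minus stomach under normexp were −0.30 for regulators, 0.15 for other secreted proteins, −0.031 for erythroid, −0.73 for pancreas and bile duct, −2.53 for stomach, −2.22 for esophagus and −1.04 for heart genes. With only genes well above background on all 4 arrays they were 0.22 for yolk sac, −0.66 for pancreas and bile duct, −0.37 for lung and −1.51 for stomach genes. With the mean of probes they were 0.26 for yolk sac, −0.33 for lung and −2.54 for esophagus genes; with no floor, 3.39 for intestinal epithelium; under quantile normalization, −3.06 for stomach and −2.43 for esophagus genes. The cause was not tested. Scaling also moved all genes: under median centring the median of all genes was 0.91 for lung minus esophagus and 0.62 for intestine minus esophagus, against 0.28 and 0.13. No paired analysis was possible because each organ has 1 array. The dim lung array limits what can be read: 13 of 31 members have only a bound there.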

Other observations

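Cfb, complement factor B, stood at −0.55 in intestine, −3.20 in stomach and −3.77 in esophagus and was not well above background in lung, and Cfi, complement factor I, at −0.42, −2.90 and −1.67, with −0.10 in lung. Agt, angiotensinogen, was highest in lung, at −2.20, above −3.47 in intestine, −3.68 in esophagus and −5.24 in stomach. Igf1 was highest in esophagus, at 3.78, and 2.13 lower on the log2 scale in intestine. These 4 secreted proteins were chosen after their values were seen.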
